A study of Mus musculus with 18 samples.

Results

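The S100 proteins and galectins of the glomerulus were followed across 18 Affymetrix Mouse Gene 1.0 ST arrays of mesangial cells, podocytes and endothelial cells from *Cd2ap* mutant and wild type mice. The 10 genes are *S100a1*, *S100a4*, *S100a6*, *S100a10*, *S100a11*, *S100a13*, *S100a16*, *Lgals1*, *Lgals3* and *Lgals9*, out of 22909 gene symbols in the deposited table. They were found by symbol. Where a gene had several transcript clusters (the probe sets that the array reads as 1 gene), it was represented by the cluster chosen by its mean signal over the 18 arrays, the highest being taken, and the list of genes was drawn up with earlier results of these data known. That choice touched *S100a11* alone among the 10, with a cluster of mean signal 2701 used in place of one of 2191. Over the 18 arrays the log2 signals of both had an r of 0.997, and whether both read the same transcripts was not tested. All 10 genes passed the signal minimum of 100 in at least 1 array of each cell type, and nothing is read from that.

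S100 proteins are small calcium-binding proteins of the EF-hand type that change shape when calcium binds and then attach to target proteins such as annexins, myosin and membrane receptors. Galectins are lectins that bind beta-galactoside sugars on glycoproteins and so link cell surface receptors and matrix proteins to each other. Both families hold members that leave the cell by unconventional routes and act on neighbouring cells, and several are known in the kidney for their presence in fibrosis and inflammation.

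Every mutant mouse was homozygous for the Cd2ap tm1Shaw null allele, which removes an adaptor protein of the podocyte slit diaphragm, and all mice were 5 weeks of age. Cells were sorted by fluorescence from isolated glomeruli with a GFP transgene for each cell type that mutants and controls both carried, so each cell type is defined by the reach of its transgene. There were 3 arrays per genotype and cell type, named A, B and C here by column order, and the series record calls them biological triplicates without saying whether animals were pooled. The deposited column names mark the mesangial controls as +/- and the other controls as +/+, and the source labels call the former control and the latter wild type, though the genotype field of all of them says wild type. They are called wild type here. In bulk RNA of sorted cells fewer cells of a type and less RNA per cell cannot be told apart.

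*Cd2ap* itself read 819, 870.4 and 797 in mutant mesangial arrays against 922 to 1123 in controls, and 1512, 1503 and 1478 in mutant podocyte arrays against 1547 to 2108, so in both cell types the mutants lay below without overlap. In endothelial cells the mutants lay above, at 891 to 966 against 757 to 859. The log2 fold changes, mutant minus wild type, were -0.31, -0.23 and 0.18 (unadjusted p = 0.0189, 0.154 and 0.0872, adjusted p = 0.151, 0.504 and 0.336, limma). None passed the screen or the adjusted test, and each direction given here rests on the labels. Array medians ran from 62.8 to 71.6, and 9697 to 10097 of 28856 clusters reached a signal of 100 per array. Precision is limited by having 3 arrays per group. The labelled cell types carried their markers, as 10 of 10 podocyte markers were at 100 or more in all podocyte arrays, 10 of 10 endothelial markers in all endothelial arrays and 9 of 9 mesangial markers in all mesangial arrays. Wild type mesangial array C stood apart, with a summed podocyte marker signal of 4256 against 1060.0 and 1217 in arrays A and B, and an erythroid sum of 7227 against 559 and 271. The podocyte arrays also held mesangial and endothelial markers, which are given beside the podocyte results.

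*Lgals1* encodes galectin-1, a small galectin that acts as a dimer. In mesangial cells its signal was 1392, 818 and 940.3 in wild type arrays A, B and C, and 1816, 2512 and 2779 in the mutant arrays. Each mutant array lay above each wild type array, with wild type A the highest control and mutant A the lowest mutant. The group means were 1050.0 ± 302 and 2369 ± 497 (SD, n = 3 each), a log2 fold change of 1.19 (standard error 0.24, unadjusted p = 0.00166, adjusted p = 0.0538, limma). In podocytes the wild type arrays gave 583, 576 and 571, and the mutant arrays gave 1732, 1800.0 and 882. The wild type podocytes were close together and all 3 mutant arrays lay above them, with mutant array C the nearest to them. That log2 fold change was 1.28 (standard error 0.27, unadjusted p = 0.00151, adjusted p = 0.143, limma). Endothelial signals were low, at 159.8, 122 and 154 in wild type and 278, 140.3 and 122 in mutant arrays. Here the genotypes overlapped and mutant array A alone was raised, with a log2 fold change of 0.22 (95% interval -0.45 to 0.89, adjusted p = 0.709).

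*S100a6*, known as calcyclin, binds annexins and is a marker of proliferating and activated cells. In mesangial cells it read 631, 363 and 464 in wild type arrays and 811, 1133 and 1302 in mutant arrays. The genotypes did not overlap, and the log2 fold change was 1.16 (standard error 0.25, unadjusted p = 0.00229, adjusted p = 0.0618, limma). The podocyte signals were 597, 398 and 271 in wild type and 1803, 1720.5 and 388 in mutant arrays. Mutant arrays A and B were far above every control, whereas mutant array C lay within the range of the wild type. The screen called this difference narrowly, at 1.41 on the log2 scale (standard error 0.59, unadjusted p = 0.0453, adjusted p = 0.339, limma). In endothelial cells *S100a6* read 760.4, 807 and 762 in wild type and 1619, 971 and 1232 in mutant arrays. All 3 mutant arrays lay above the closely spaced controls, a log2 fold change of 0.68 (standard error 0.17, unadjusted p = 0.00432, adjusted p = 0.112, limma). *S100a6* was the member called by the screen in all 3 cell types, and 2 of these calls were fragile. The podocyte call was lost with no signal minimum, with array medians subtracted, and without wild type array B or C or mutant array A or B. The endothelial call was lost in the fit of 18 arrays, after quantile normalization (log2 fold change 0.58) and without mutant array A (0.49).

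*S100a4*, also called fibroblast-specific protein, binds non-muscle myosin and is used as a marker of fibroblasts. Its mesangial signals were 168, 112 and 231 in wild type and 202, 289 and 299.6 in mutant arrays, so wild type array C overlapped with mutant array A. With a log2 fold change of 0.67 (standard error 0.28, unadjusted p = 0.0481, adjusted p = 0.227, limma) it passed the screen by a small margin, and it no longer did without wild type array A or B or mutant array B or C (log2 fold changes 0.69, 0.40, 0.59 and 0.57). Over 8 alternatives of the processing this log2 fold change ran from 0.53 to 0.69. At 0.53 it lay under the 1.5-fold limit, so the call was lost there too. Podocyte signals were 198, 169 and 128 in wild type and 396, 363 and 145 in mutant arrays. As for *S100a6*, mutant arrays A and B were high and C was not, and the log2 fold change of 0.76 did not pass (standard error 0.38, unadjusted p = 0.0803, adjusted p = 0.403). Endothelial signals were 483, 279.6 and 381 in wild type and 579.6, 486 and 565 in mutant arrays. Those groups did not overlap, wild type A and mutant B being nearly equal, and the log2 fold change of 0.54 had an unadjusted p of 0.0216 and an adjusted p of 0.200 but lay under the 1.5-fold limit.

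*Lgals9* encodes galectin-9, a galectin with a pair of sugar-binding domains that is known as a target of interferons and a ligand of the T cell receptor Tim-3. In endothelial cells it read 938, 936 and 871 in wild type and 1327, 1471 and 1281 in mutant arrays. The groups were well separated and each was tight. The means of 915 ± 38.3 and 1359 ± 99.1 (SD, n = 3 each) differed by 0.57 on the log2 scale (standard error 0.09, adjusted p = 0.0313, limma), just short of 1.5-fold. Of the 30 tests of members within a cell type, in the fit as reported, it was the one with an adjusted p under 0.05. Over 8 alternatives that adjusted p ran from 0.00757, with an intensity trend and robust estimation, to 0.396, when all 18 arrays shared 1 fit, with 0.0506 after quantile normalization, and it ran from 0.0474 to 0.145 when single arrays were left out. With array medians subtracted the log2 fold change was 0.64, past 1.5-fold (adjusted p = 0.0194). *Lgals1* and *S100a6* also reached an adjusted p under 0.05 under some alternatives, as low as 0.0285 and 0.0348 in mesangial cells with the signal minimum required in all 3 arrays of a genotype, and 0.0207 for *Lgals1* in podocytes in the fit of 18 arrays. *S100a6* in endothelial cells did so without mutant array B (adjusted p = 0.0331). In podocytes the wild type arrays gave 293, 410.4 and 336, and the mutant arrays 542, 227 and 149.9. The mutant arrays lay on both sides of the controls, with a log2 fold change of -0.38 (95% interval -1.36 to 0.61). Mesangial arrays gave 869.5, 742 and 971 in wild type and 748, 694 and 934 in mutants, which overlapped.

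*Lgals3* encodes galectin-3, the chimera-type galectin that macrophages express strongly. It lay near the signal minimum of 100 in most arrays, and reached 100 in 16 of 18. Its podocyte signals were 119, 135 and 121 in wild type and 219.8, 191 and 133 in mutant arrays. Mutant arrays A and B were again the high ones, and C lay among the controls. The log2 fold change of 0.50 (standard error 0.20, unadjusted p = 0.0341, adjusted p = 0.319, limma) fell short of 1.5-fold. In mesangial and endothelial cells all signals of *Lgals3* lay between 93.3 and 137, and the genotypes overlapped.

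The other 5 S100 genes were not called by the screen in any cell type. *S100a10*, the p11 partner of annexin A2, read 1602, 1357 and 1107 in wild type and 1456, 1650.1 and 1807 in mutant endothelial arrays, which overlapped, and its log2 fold change of 0.28 had a 95% interval of -0.06 to 0.63. *S100a11*, known as calgizzarin, read 1783, 1763 and 1836 in wild type and 2022, 1999 and 2154 in mutant endothelial arrays. There the genotypes did not overlap, but the step was small, at 0.20 on the log2 scale (standard error 0.08, unadjusted p = 0.0460, adjusted p = 0.264, limma). *S100a16*, a widely expressed S100 protein, read 397, 396 and 314 in wild type and 342, 234 and 210.2 in mutant podocyte arrays. Mutant array A was within the controls and B and C were below them, a log2 fold change of -0.52 (standard error 0.21, unadjusted p = 0.0377, adjusted p = 0.325, limma), under the fold limit. *S100a1*, a regulator of calcium handling in muscle, and *S100a13*, which takes part in the release of growth factors without a signal peptide, had log2 fold changes between -0.21 and 0.20 in the 3 cell types, and their genotypes overlapped in each.

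**Figure D1:**
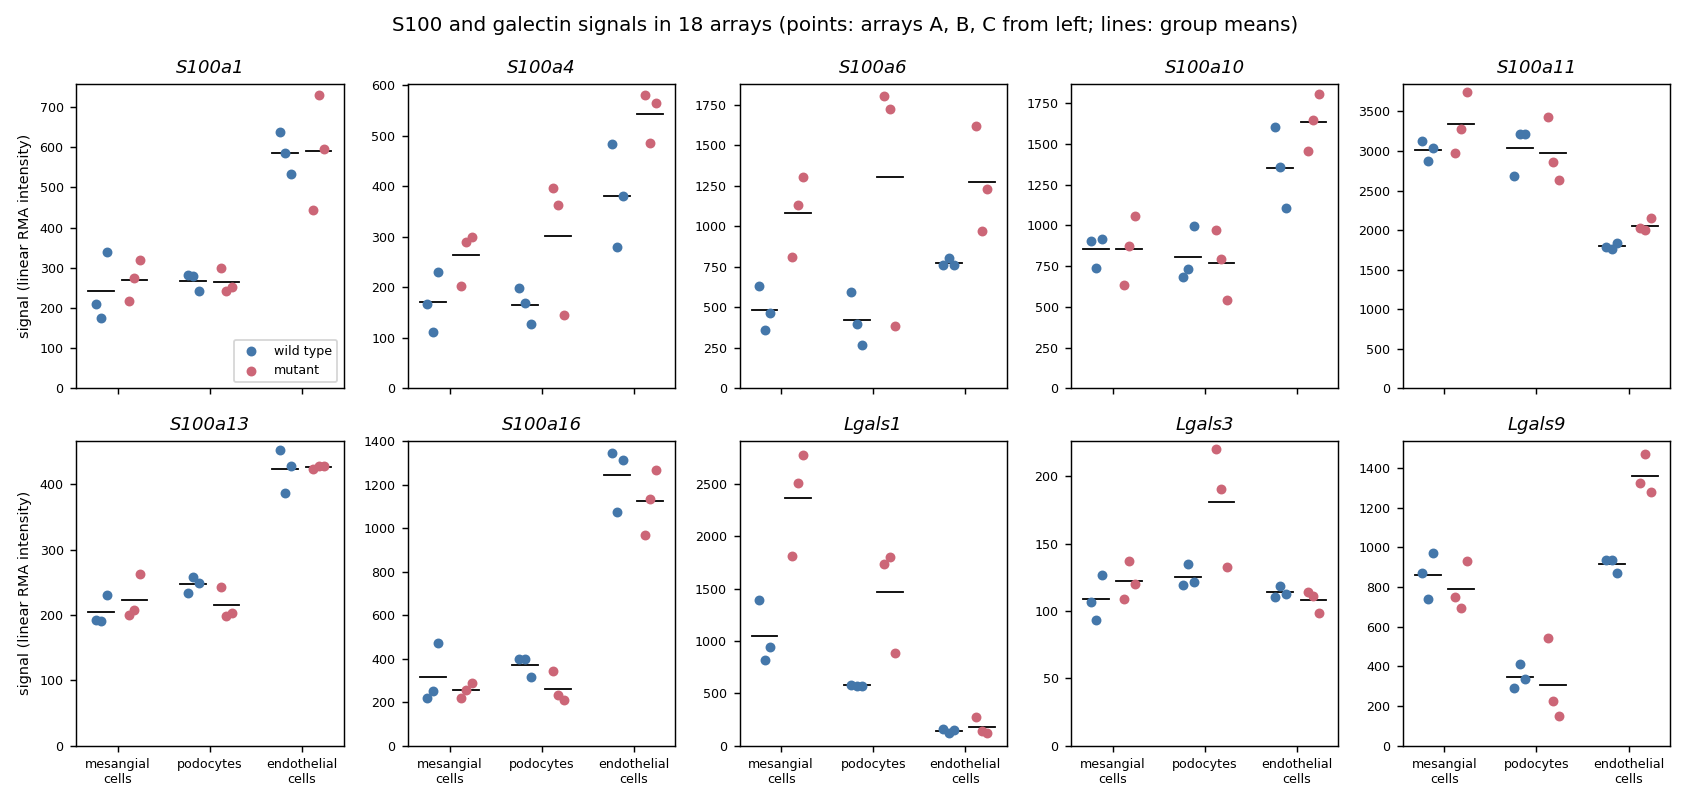
Signal of each of the 10 genes (linear RMA intensity, axis from 0) in 18 arrays, by cell type and genotype, with points for arrays A, B and C and lines for group means. *Lgals1* and *S100a6* are higher in all 3 mutant mesangial arrays, *Lgals9* in all 3 mutant endothelial arrays, and mutant podocyte array C lies near the controls for *S100a4*, *S100a6* and *Lgals3*.

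Counted together, the screen of the study (a fold change over 1.5 at an unadjusted p under 0.05) called 3 of 10 genes higher in mutant mesangial cells, *S100a4*, *S100a6* and *Lgals1*, beside 2.08% of the 11457 clusters tested. In podocytes it called 2 of 10 higher, *S100a6* and *Lgals1*, beside 1.26% of 12113 clusters, and in endothelial cells 1 of 10, *S100a6*, beside 2.96% of 11330. No member was called lower in any cell type, where the screen called 3.12% of clusters lower in mesangial cells, 4.34% in podocytes and 0.865% in endothelial cells. At an adjusted p under 0.05 in either direction, 0 members passed in mesangial cells (2.92% of clusters did), 0 in podocytes (0.0578%) and 1 in endothelial cells (1.29%). An unadjusted p under 0.05, with no fold limit, was found for 3 members in mesangial cells (21.7% of clusters), 4 in podocytes (14.3%) and 4 in endothelial cells (18.5%). All 3 mutant arrays lay above all 3 controls for 2 members in mesangial cells (12.3% of clusters), 1 in podocytes (6.97%) and 4 in endothelial cells (17.7%), and below them for 0 members (16.3%, 14.3% and 7.34%). The median log2 fold change of the 10 genes was 0.15 in mesangial cells, -0.03 in podocytes and 0.21 in endothelial cells, against -0.02, -0.04 and 0.07 over all clusters tested. As the list was drawn up with earlier results known, these shares describe it and are no test of the families.

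**Figure D2:**
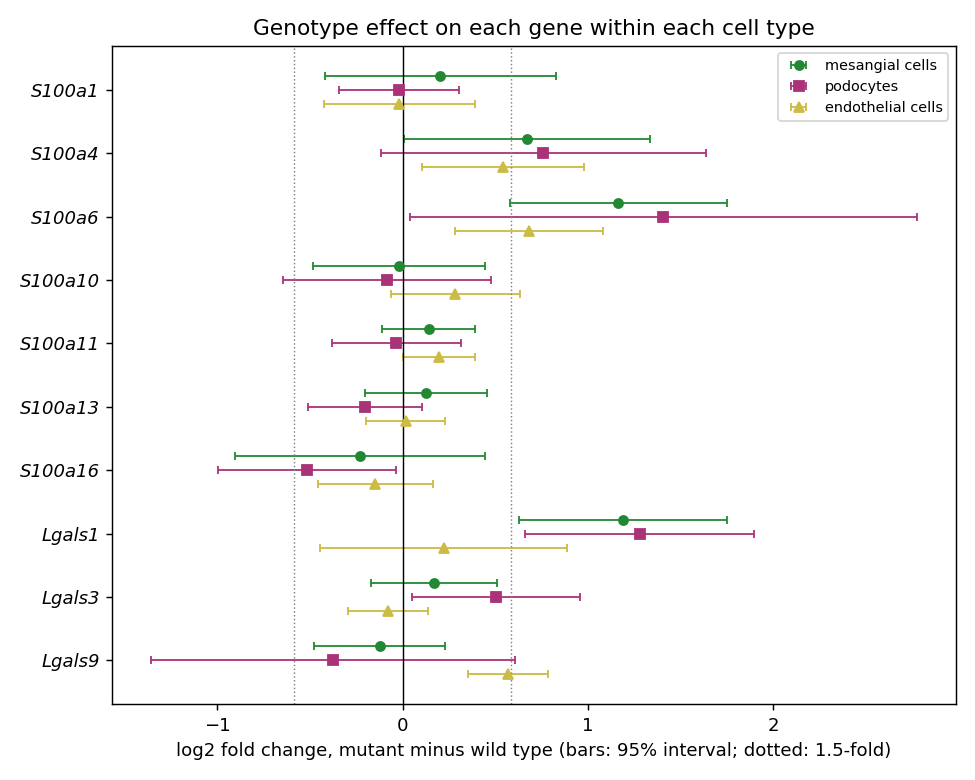
Log2 fold change, mutant minus wild type, of each gene in mesangial cells, podocytes and endothelial cells, with 95% intervals from limma and dotted lines at 1.5-fold. *S100a6* lies above 0 in all 3 cell types and *Lgals1* in mesangial cells (1.19) and podocytes (1.28), while the endothelial value of *Lgals1* is 0.22.

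Whether the genotype effect differed between cell types was tested as an interaction over all 18 arrays, and 0 of 10 members passed an adjusted p of 0.05 in any of the 3 contrasts (limma). These contrasts called 0.717% of 13523 clusters for podocytes against mesangial cells, 1.07% for endothelial against mesangial cells and 2.11% for podocytes against endothelial cells. The mesangial effect is taken against controls marked +/- and the others against +/+, so cell type and control genotype cannot be told apart where mesangial cells enter. The *Lgals1* effect was smaller in endothelial than in mesangial cells by a log2 difference of -0.97 (95% interval -1.88 to -0.05, unadjusted p = 0.0396, adjusted p = 0.290). Podocytes against endothelial cells gave a log2 difference of 1.06 for *Lgals1* (0.14 to 1.98, unadjusted p = 0.0261, adjusted p = 0.159). For *S100a6* the intervals of the difference were wide, from -1.11 to 1.59 for podocytes minus mesangial cells and from -1.83 to 0.87 for endothelial minus mesangial cells. An unadjusted p under 0.05 was also found for podocytes minus endothelial cells in *Lgals3* (0.58, adjusted p = 0.137) and *Lgals9* (-0.95, adjusted p = 0.203). Without mutant podocyte array A the *Lgals9* difference passed the adjusted threshold (as did 15.5% of clusters in at least 1 of the 3 contrasts), and without array C that of *Lgals3* did (4.03%), against 3.14% with all arrays.

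Markers of other cells moved in the same arrays. In mutant podocytes the summed signal of 5 juxtaglomerular and smooth muscle markers (*Ren1*, *Acta2*, *Myh11*, *Tagln*, *Cnn1*) was 2970.2, 2373 and 1022 in arrays A, B and C, against 766 to 783 in wild type podocytes, and *Ren1* and *Acta2* were called higher among the 4 tested. *Tagln*, which encodes the actin-binding transgelin of smooth muscle, read 900.1, 499 and 96.9 in the mutant arrays and 115 to 122 in the controls. The arrays with high *Tagln* are thus those with high *S100a4*, *S100a6* and *Lgals3*. Array C was the lowest of the mutants in *S100a10*, *S100a11*, *S100a16*, *Lgals1* and *Lgals9* too, though not in *S100a1* or *S100a13*. *Tagln* itself was not called. In array C it lay below the controls, whereas the sum of the 5 markers there, 1022, lay above them. Over the same arrays 9 of 10 endothelial markers were called lower. Their sums were 2889, 1326 and 882 in mutant arrays A, B and C, against 4615 to 6183 in controls. Lower calls also covered 4 of 9 mesangial markers, with sums of 3609.7, 3222 and 1207 against 3804 to 4811. Array C was thus the lowest of the mutants in these lists as well. The 12 leukocyte markers summed to 782 to 1217 in mutant and 858 to 1308 in wild type podocytes, with 8 and 7 of them below 100 in all 3 arrays and *Csf1r* called higher. Podocyte markers summed to 13975 to 17193 in mutants and 15840 to 18042 in controls. The 3 erythroid markers summed to 5377, 692 and 202 in mutant arrays A, B and C against 2962 to 3963 in controls, with a median log2 fold change of -2.07 over the 2 tested. The part of these shifts in the podocyte results was not tested.

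**Figure D3:**
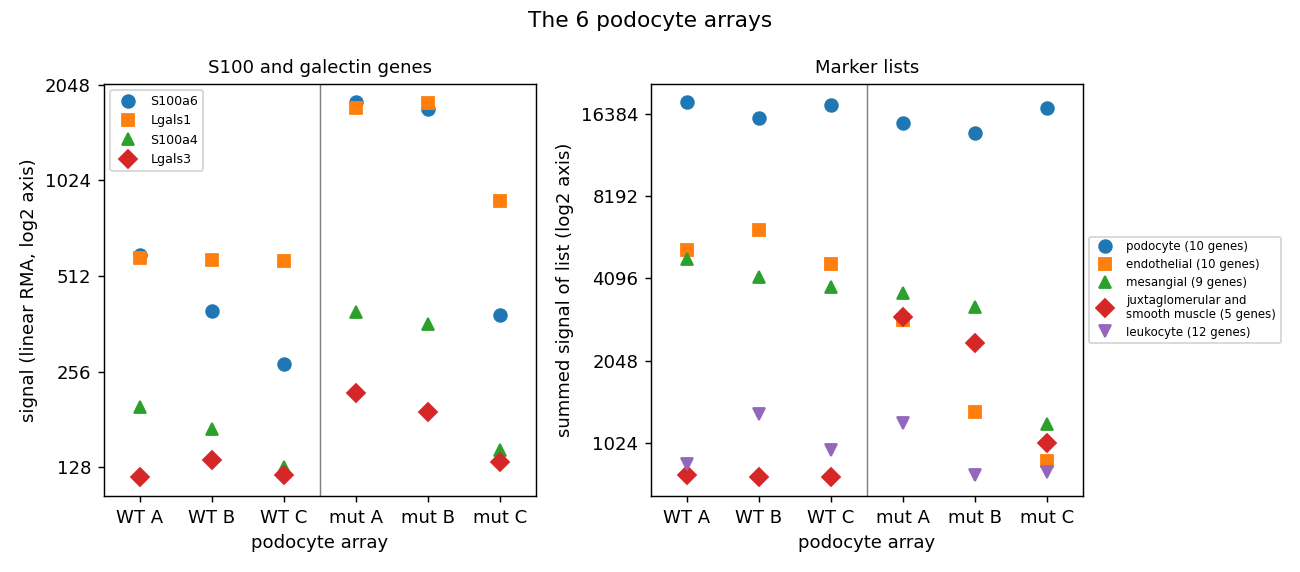
Signals of *S100a6*, *Lgals1*, *S100a4* and *Lgals3* (left) and summed signals of 5 marker lists (right) in the 3 wild type (WT) and 3 mutant (mut) podocyte arrays, both on log2 axes. Mutant arrays A and B are high for all 4 genes and for the juxtaglomerular and smooth muscle list, and array C is the lowest of the mutants in all 5 of these. Array C is also the lowest of the mutants for the endothelial and mesangial lists, but not for the podocyte and leukocyte lists.

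Left out 1 at a time, the podocyte arrays changed the calls of this family. Without mutant array C, 4 members were called higher in podocytes (*S100a4*, *S100a6*, *Lgals1* and *Lgals3*), and *S100a6* reached a log2 fold change of 2.14, while the share of all clusters called higher went from 1.26% to 1.91%. Without mutant array A, *Lgals1* was the one member called higher, at 1.13 (1.73% of clusters), and *S100a16* and *Lgals9* were called lower, at -0.73 and -0.89 (8.61% of clusters, against 4.34% with all arrays). Without mutant array B, *Lgals1* was the one member called, at 1.10 (1.17% of clusters called higher), and *S100a6* lay at 1.03 and 1.06 in the fits without A and without B. *Lgals1* was again the one member called higher without wild type array B or C (1.07% and 1.13% of clusters), and without C *S100a16* was called lower (4.48%). *Lgals1* in podocytes stayed between 1.10 and 1.61 in the 6 fits.

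In mesangial cells the juxtaglomerular and smooth muscle markers summed to 1592, 2603 and 2892 in mutant arrays A, B and C against 1326 to 1609 in controls, and 2 of 5 were called higher. Those called were *Acta2* and *Tagln*, and without wild type array C *Acta2* alone was called. *Acta2*, smooth muscle actin, read 811, 1689 and 1562 in these mutant arrays. Array A, the lowest of the 3 in *S100a4*, *S100a6* and *Lgals1*, was the lowest here as well. It was also the lowest in *S100a1*, *S100a10*, *S100a11*, *S100a13*, *S100a16* and *Lgals3*, which were not called, so this order is not particular to the called genes. Mesangial markers summed to 9217 to 10230 in mutants and 11759 to 12997 in controls, with 2 of 9 called lower. Also called lower were 2 of 10 endothelial markers and 1 of 10 podocyte markers, *Tek*, *Ehd3* and *Wt1*. The medians over these lists were -0.43 and -0.61 on the log2 scale and turned to 0.26 and 0.09 without wild type array C, over the 9 and 4 markers then tested, while *Tek*, *Ehd3* and *Wt1* were called lower there too. The leukocyte sum was 819, 2337 and 783 in mutant arrays and 729.7, 639.9 and 1647 in controls, with 8 of 12 markers below 100 in all 3 arrays of either genotype. The median log2 fold change of the leukocyte markers was 0.12 over the 5 tested. Without wild type array C it was 0.55 over the 4 then tested, and all 4 lay above 0. Without wild type array C, which carried podocyte and erythroid markers, *S100a4*, *S100a6* and *Lgals1* were all called, with log2 fold changes of 0.92, 1.15 and 1.13, beside 2.29% of 11134 clusters called higher. Over the 6 fits that left out 1 array, *S100a6* ran from 0.97 to 1.37 and *Lgals1* from 1.03 to 1.41. The part of the marker shifts in these results was not tested.

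In endothelial cells the endothelial markers summed to 18161 to 18946 in mutants and 16440 to 18018 in controls, and 0 of 10 were called. The 5 juxtaglomerular and smooth muscle markers summed to 333 to 387 in mutants and 305 to 432 in controls, and the 9 mesangial markers to 1093, 788 and 818 in mutant arrays A, B and C and 734 to 795 in controls. Of the 2 mesangial markers tested, *Serpine2*, a serine protease inhibitor, was called higher, with 467, 177 and 251 in the mutants against 95.4 to 131, so array A was the highest here as it was for *S100a6* and *Lgals1*. The 12 leukocyte markers summed to 1454, 1027 and 794 in mutant arrays A, B and C against 713 to 893 in controls. Of these markers, 8 in mutants and 11 in controls lay below 100 in every array of the group. The screen called 0 of the 4 tested, with a median log2 fold change of 0.51. *Tyrobp*, which was not called, read 475, 274 and 151 in the mutants. The part of these marker shifts in the results was not tested. For *Lgals9* the log2 fold change stayed between 0.51 and 0.61 when single arrays were left out.

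The levels of most members also differed between the wild type cell types, which were compared in the fit over 18 arrays. As the mesangial controls are marked +/- and the others +/+, cell type and control genotype cannot be told apart in comparisons with mesangial cells. Endothelial cells differed from mesangial cells in 7 of 10 genes at an adjusted p under 0.05 (27.2% of 13523 clusters did), podocytes from endothelial cells in 8 of 10 (33.4%) and podocytes from mesangial cells in 1 of 10 (23.1%). *S100a16* read 1344, 1073 and 1314 in wild type endothelial arrays, 397, 396 and 314 in wild type podocytes and 221, 249.7 and 474 in mesangial arrays. Endothelial arrays lay far above the others, by a log2 difference of 2.06 over mesangial cells (standard error 0.24, adjusted p = 6.88e-06, limma), and podocytes and mesangial cells overlapped. The high mesangial value belongs to array C, which carried endothelial and podocyte markers.

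*S100a1* and *S100a13* followed the same order. *S100a1* read 638, 586 and 534 in endothelial, 283, 281 and 241 in podocyte and 209.8, 175 and 340.0 in mesangial wild type arrays, a log2 difference of 1.33 between endothelial and mesangial cells (adjusted p = 0.000210, limma). *S100a13* read 453, 386 and 428 in endothelial, 233, 258 and 249 in podocyte and 192, 190.3 and 231 in mesangial arrays, with an endothelial minus mesangial difference of 1.05 (adjusted p = 4.73e-06, limma). Its podocyte and mesangial levels did not overlap but were close, 0.28 apart on the log2 scale (adjusted p = 0.106). *S100a4* (1.19, adjusted p = 0.0151) and *S100a10* (0.66, adjusted p = 0.0368) were higher in endothelial than in mesangial cells too, and both calls were lost without wild type endothelial array A.

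*S100a11* and *Lgals1* ran the other way. *S100a11* was lower in endothelial than in mesangial cells by a log2 difference of -0.75 (adjusted p = 8.03e-05, limma), and mesangial cells and podocytes, at 3014 ± 126 and 3035 ± 304 (SD, n = 3 each), did not differ beyond their spread. *Lgals1* was highest in mesangial cells (1050.0 ± 302), then podocytes (577 ± 5.76), and lowest in endothelial cells (145 ± 20.5). Mesangial and endothelial cells differed by -2.83 on the log2 scale, endothelial minus mesangial (standard error 0.31, adjusted p = 3.04e-06, limma), while the step from mesangial cells to podocytes, -0.83, had an adjusted p of 0.0623. *Lgals9* was lower in podocytes than in mesangial cells (-1.32, adjusted p = 0.00488) and endothelial cells (-1.41, adjusted p = 0.00190, limma), and the latter cell types did not differ beyond their spread. For *S100a6* (podocyte minus endothelial -0.95, adjusted p = 0.121) and *Lgals3* (0.13, adjusted p = 0.566) no pair of cell types passed. Wild type podocyte arrays also held mesangial and endothelial markers, whose part in the podocyte levels was not tested. With all arrays 8 of 10 members and 47.2% of clusters differed between at least 1 pair of wild type cell types, and without wild type mesangial array C the same 8 members and 43.9% of clusters did.

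The genes lie in groups along the genome. On chromosome 3 the order was *S100a1*, *S100a13*, *S100a16*, *S100a4* and *S100a6*, and, after 59 other protein-coding genes, *S100a11* and *S100a10*, while *Lgals9*, *Lgals3* and *Lgals1* lie on chromosomes 11, 14 and 15. *S100a1* and *S100a13* are read away from each other from starts 104 bases apart, and over the 18 arrays their log2 signals had an r of 0.95, or 0.66 after group means were removed. *S100a4* and *S100a6* are read in the same direction with 1 protein-coding gene between them, and their r was 0.82 before and 0.82 after group means were removed. The neighbours *S100a11* and *S100a10*, with 0 protein-coding genes between them, had an r of -0.63 before and 0.78 after group means were removed. The pair with the highest r was *S100a13* and *S100a16*, at 0.97, or 0.76 after group means were removed. After that step *S100a4* and *S100a6* had the highest r. These values are descriptions over 18 arrays that share cell type and genotype. The stretch between the opposed starts of *S100a1* and *S100a13* (RefSeq, GRCm38.p6, chr3:90514331-90514434, read on the plus strand, 58.7% G or C), and the 250 bases before the listed starts of *S100a4* (chr3:90603520-90603769, plus strand), *S100a6* (chr3:90612644-90612893, plus strand) and *Lgals9* (chr11:78984925-78985174, minus strand), are shown because these genes moved together over the arrays or, for *Lgals9*, passed the adjusted test. Capitals mark a TATA box (TATAAA) in *S100a4* and the reverse complement of an interferon response motif (GAAANNGAA) in *Lgals9*.
S100a1 to S100a13: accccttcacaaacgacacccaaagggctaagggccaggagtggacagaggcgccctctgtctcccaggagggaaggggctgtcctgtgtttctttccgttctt
S100a4: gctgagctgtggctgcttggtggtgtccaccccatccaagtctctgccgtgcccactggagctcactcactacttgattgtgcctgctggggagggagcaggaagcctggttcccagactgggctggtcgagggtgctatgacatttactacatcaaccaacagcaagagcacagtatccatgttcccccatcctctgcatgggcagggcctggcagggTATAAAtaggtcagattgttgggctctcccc
S100a6: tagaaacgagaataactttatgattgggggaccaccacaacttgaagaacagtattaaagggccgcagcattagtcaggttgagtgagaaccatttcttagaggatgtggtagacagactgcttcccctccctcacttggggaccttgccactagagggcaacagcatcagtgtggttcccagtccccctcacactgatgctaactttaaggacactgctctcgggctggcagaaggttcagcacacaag
Lgals9: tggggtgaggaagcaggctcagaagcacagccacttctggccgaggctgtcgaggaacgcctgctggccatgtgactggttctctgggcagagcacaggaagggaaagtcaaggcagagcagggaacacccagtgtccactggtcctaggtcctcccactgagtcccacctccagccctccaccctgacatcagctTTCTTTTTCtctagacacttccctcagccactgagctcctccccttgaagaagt

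The motifs were searched on both strands in the 250 bases before each start of 8 of the 10 members with a RefSeq entry and of all 32841 listed starts. The TATA box of *S100a4* begins 31 bases before its start, and 12.4% of all windows hold those letters. In *Lgals9* the interferon response motif lies 54 bases before the start on the opposite strand, and 7.13% of all windows hold one, among them also windows of *S100a1* and *S100a16*. None of the searched motifs, which also took in the GC box (GGGCGG, 32.7% of windows), the AP-1 site (TGANTCA, 6.75%) and the GAS element (TTCNNNGAA, 7.02%), occurs in the window of *S100a6*. A match describes letters and no more.

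Of 16 further S100 and galectin genes, 15 had a row in the table, and most lay below the signal minimum. The clusters tested numbered 4 in mesangial cells, 5 in podocytes and 3 in endothelial cells, *Lgals4* and *Lgals6* sharing 1, and the screen called 0 of them, beside the shares of all clusters given above. Among them *S100a8* and *S100a9*, the calprotectin subunits of neutrophils and monocytes, had signals of 30.7 to 47.3 and 57.1 to 127. *Lgals8*, a galectin with a pair of sugar-binding domains like galectin-9, was the one read clearly in all arrays. Its endothelial signals were 724, 786 and 825 in wild type and 972, 944 and 979 in mutant arrays, which did not overlap, a log2 fold change of 0.31 (standard error 0.09, unadjusted p = 0.00812, adjusted p = 0.144, limma).

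Binding partners, receptors and a glycan enzyme of these proteins formed a list of 16 genes, of which 15 had a row and 11 to 13 were tested per cell type. The screen called 0 of 13 in mesangial cells in either direction, where 2.08% of all clusters were called higher and 3.12% lower. It called 1 of 12 lower in podocytes, where 4.34% of all clusters were called lower, and 1 of 11 higher in endothelial cells, where 2.96% were called higher. *Lgals3bp*, a secreted glycoprotein that galectins bind, read 202, 155 and 176 in wild type and 317, 316 and 289 in mutant endothelial arrays. It rose by 0.80 on the log2 scale (standard error 0.12, adjusted p = 0.0186, limma), in the cells where *Lgals9* passed. *Plat*, tissue plasminogen activator, whose action on cell surfaces involves the *S100a10* and annexin A2 complex, read 2494, 2245 and 2814 in wild type and 1610.2, 1401 and 1557 in mutant podocyte arrays. It was called lower (log2 fold change -0.72, standard error 0.14, unadjusted p = 0.000852, adjusted p = 0.135), with the endothelial markers lower in the same arrays. *Tlr4*, an innate immune receptor, passed the adjusted test in mesangial cells without reaching the fold limit (log2 fold change 0.50, adjusted p = 0.0425, limma). Of all clusters tested there, 2.92% passed the adjusted test. The annexins *Anxa1*, *Anxa2*, *Anxa5* and *Anxa6* were not called in any cell type, nor was *Anxa11* in mesangial cells, where alone it reached the signal minimum.

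For each member the most similar genes outside both families were taken by Pearson's r of log2 signals over the 18 arrays, among 9944 candidates. *Lgals1* was most like *Cpe* (0.97) and *Ext1* (0.96), and *S100a6* was most like *Crip1* (0.85) and *Tes* (0.85). The highest values were those of *S100a16* with *Gmfg* (0.99) and *Plcb1* (0.98), and *S100a13* with *Ddah2* (0.98) and *Pde2a* (0.97). *Lgals9* was closest to *Aida* (0.96) and *Pxk* (0.96), *Lgals3* to *C3* (0.92) and *Stc2* (0.91), and *S100a11* to *Bicc1* (0.95) and *Tmsb10* (0.95). *S100a1* was nearest to *Cd9* (0.96) and *Fam105b* (0.96), *S100a4* to *Rplp0* (0.93) and *Carhsp1* (0.92), and *S100a10* to *Atox1* (0.93) and *1700040I03Rik* (0.92). These r values are over all 18 arrays, which share cell type and genotype, and are descriptions.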

How the data were processed

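Ribo-SPIA, a linear method, gave enough cDNA in 1 round from the sorted cells for Affymetrix Gene 1.0 ST arrays. The authors deposited linear intensity values per transcript cluster, which the sample records ascribe to RMA in Expression Console and the methods to GeneSpring, while the series record names Exon arrays and GeneBASE. A second form of 18 columns with normalized values was not used, and the RNA-seq was not analysed here. Here limma 3.58.1 (lmFit, eBayes; R 4.3.3) was fitted to log2 signals, within each cell type on clusters that reached 100 on any of its 6 arrays, and in 1 fit of 18 arrays for interactions and wild type cell types. Benjamini-Hochberg adjustment covered all clusters tested. The fits were tested on simulated data, but no outcome of that is given here and nothing is read from it. Named genes are the 10 members, *Cd2ap*, other genes of both families, listed partners, the 2 most similar genes per member, and markers. Members and lists were chosen with earlier results of these data known. Alternatives were other signal minimums, shared or robust fits, rescaling, an offset of 50 and leaving out single arrays. Sequences and gene order came from RefSeq tables of GRCm38.p6, and array coordinates were not used. The names of the reporter transgenes are not reported here.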

Additional observations from a re-analysis of the deposited data

How the results depend on the processing

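Each of 30 log2 fold changes of members was recomputed under 8 alternatives and with each array left out. This gave 365 values with the same direction and side of the threshold, 17 that lost and 15 that gained the screen, and 23 of opposite sign. Other signal minimums and shared or robust fits leave the log2 fold change as it was, so its sign could not turn there. Taking the mean of all clusters of a gene, another alternative, changed *S100a11* alone. The count of 365 is therefore no measure of agreement. With Benjamini-Hochberg adjustment and the fold limit, other settings unchanged, 0 members were higher in mesangial cells, podocytes or endothelial cells (0.882%, 0.0495% and 1.05% of clusters were). Other alternatives took members past both: *Lgals1* in mesangial cells under 4 (lowest adjusted p = 0.0285, with the signal minimum in all 3 arrays of a genotype) and without wild type array A (0.0478), *S100a6* there under 3 (lowest 0.0348, same setting), *Lgals1* in podocytes in the fit of 18 arrays (0.0207), *Lgals9* in endothelial cells with array medians subtracted (0.0194) and without wild type array A (0.0474), and *S100a6* there without mutant array B (0.0331). In podocytes 1 member was higher with no signal minimum (0.485% of clusters) and 1 with array medians subtracted (1.05%). The fit of 18 arrays called *S100a4* higher there as well (1.48% of clusters). In endothelial cells 0 were higher in the fit of 18 arrays (2.95%), 0 after quantile normalization (2.29%) and 3 with array medians subtracted (3.85%), which moved the median of all clusters there from 0.07 to 0.14. Signs turned after quantile normalization for *S100a10* in mesangial cells (0.014) and podocytes (0.018), *S100a1* in podocytes (0.11) and *S100a13* in endothelial cells (-0.11), and with medians subtracted for *S100a1* in endothelial cells (0.054). The cause was not tested. With single arrays left out, members higher ran from 1 to 4 in podocytes (1.07% to 1.91% of clusters) and 1 to 3 in endothelial cells (2.46% to 3.46%), members lower in podocytes from 0 to 2 (3.63% to 8.61%), and members whose effect differed between cell types from 0 to 1 (0.986% to 15.5%, in at least 1 of 3 contrasts). Over the same fits signs turned for *S100a10* (-0.19 to 0.18) and *S100a16* (-0.44 to 0.11) in mesangial cells, for *S100a1* (-0.11 to 0.041), *S100a10* (-0.27 to 0.15), *S100a11* (-0.14 to 0.049) and *Lgals9* (-0.89 to 0.034) in podocytes, and for *S100a1* (-0.19 to 0.17), *S100a13* (-0.048 to 0.068) and *Lgals1* (-0.14 to 0.45) in endothelial cells. Members that differed between wild type cell types numbered 6 to 9 (40.5% to 52.4% of clusters). No paired analysis was possible because the genotypes share no replicate numbers. *Lgals3* lay near background, which limits its fold changes.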

Other observations

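*S100g*, the vitamin D dependent calbindin of the distal tubule and gut, was not called in any cell type but varied among wild type arrays. It read 513 in wild type mesangial array C against 109 and 95.9 in arrays A and B, and 316 in wild type podocyte array B against 105 and 185 in arrays A and C. The summed signal of 10 tubule markers was highest in the same arrays of each group, at 1981 in wild type mesangial array C and 1085 in wild type podocyte array B, with 547 and 553 in the other wild type mesangial arrays and 671 and 737 in the other wild type podocyte arrays.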
